A study of Mus musculus with 12 samples.

Results

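Eotaxins are the chemokines that draw eosinophils into tissue, and 10 mouse genes of that system are described here in whole lung. They are the eotaxins Ccl11 and Ccl24, the receptors Ccr3 and Il5ra, the granule protein genes Epx and Prg2, the surface lectin gene Siglecf, and the eosinophil-associated ribonuclease genes Ear1, Ear2 and Ear6. They were taken by symbol from the 54532 gene identifiers of the count table. All 10 were found, and 9 passed the filter on low counts; Epx did not.

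Poly(A) RNA of whole lung was sequenced from mice of 2 genotypes, each given PBS or a treatment that the labels call CRE. What CRE stands for is not written in the labels; it is distinct from the Cre recombinase. All 4 groups carried Cc10-Cre, in which Cre is driven by the promoter of Cc10 (Scgb1a1), the secretory protein of club cells. WT_PBS and WT_CRE mice carried Cc10-Cre alone, while CKO_PBS and CKO_CRE mice (Cc10-Cre;Rhoafl/fl) also carried floxed Rhoa, the gene of a small GTPase that controls the actin cytoskeleton. Each group held 3 libraries. The labels give no age or sex, and do not say that the libraries of a group came from separate mice, so p-values measure the spread between these libraries, which may be partly technical. The series title names RhoA in Clara cells, allergic airway inflammation and interstitial macrophages.

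Eosinophils leave the bone marrow and enter tissue along gradients of CCL11 and CCL24, which both act on the receptor CCR3. Interleukin-5 drives eosinophil production and survival through a receptor whose own subunit is IL5RA, paired with the shared beta chain. In allergic airways the eotaxins are made mainly by macrophages, fibroblasts and epithelial cells under interleukin-4 and interleukin-13, so ligand and receptor transcripts come from different cells. EPX (eosinophil peroxidase) and PRG2 (major basic protein) are stored in eosinophil granules, and their transcripts are made chiefly while the cells mature in the marrow. Siglec-F, Ear1 and Ear2 are not restricted to eosinophils in mouse lung, since alveolar macrophages express them too.

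Library totals ran from 16250674 to 21559210 counts. Rhoa itself was at 481 ± 8.86 CPM (counts scaled to library size, mean ± SD, n = 3) in WT_PBS and 449 ± 45.0 CPM in CKO_PBS. Under CRE it was at 524 ± 5.21 CPM in WT and 501 ± 39.9 CPM in CKO. It did not pass the test between genotypes under PBS (adjusted p = 1) or under CRE (adjusted p = 0.728), so whole-lung Rhoa counts do not check the genotype labels, as the deletion would be limited to Cc10-expressing cells. CKO_CRE replicate 2 stood apart from the other CKO_CRE libraries: the summed level of the 10 genes was 577 CPM there, against 355 and 397 CPM in replicates 1 and 3. Summed neutrophil markers were at 561 CPM in it against 341 and 221 CPM. Not every list set it apart. Summed B and plasma cell markers were spread, at 481, 1040 and 786 CPM in replicates 1, 2 and 3. Summed mast cell and basophil markers were even, at 335, 323 and 310 CPM, but Kit (175, 145 and 180 CPM) and Hdc (152, 162 and 121 CPM) gave most of that sum. Scarcer genes of that list were not all even. Cd200r3 was highest in replicate 2, at 1.14, 7.0 and 1.29 CPM, while Cpa3 was lowest there, at 3.24, 2.1 and 2.88 CPM. By Y-linked counts 0 of 3 WT_PBS, 1 of 3 CKO_PBS, 2 of 3 WT_CRE and 2 of 3 CKO_CRE libraries were from females, and adding sex to the fit changed no member's call.

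Ear1 and Ear2 moved in opposite directions under CRE although they are near copies of each other, and the DNA upstream of their starts is shown for that reason. Both lie on chromosome 14 of GRCm38, Ear1 (ENSMUSG00000072601) at chr14:43818765-43875517 on the minus strand and Ear2 (ENSMUSG00000072596) at chr14:44102654-44103534 on the plus strand. The 250 bases before each RefSeq start (RefSeq, build GRCm38.p6) are chr14:43819640-43819889 on the minus strand for Ear1 and chr14:44102404-44102653 on the plus strand for Ear2, each written 5′ to 3′ with the bases that differ between the pair in capitals. GENCODE gives Ear1 a pair of transcripts: the RefSeq start is that of the shorter, and the window lies in an intron of the longer, which reaches the far end of the gene span.
Ear1: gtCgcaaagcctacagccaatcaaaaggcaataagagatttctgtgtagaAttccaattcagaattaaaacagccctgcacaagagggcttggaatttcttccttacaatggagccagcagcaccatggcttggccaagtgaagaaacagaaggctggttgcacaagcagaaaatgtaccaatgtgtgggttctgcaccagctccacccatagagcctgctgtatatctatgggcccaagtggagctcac
Ear2: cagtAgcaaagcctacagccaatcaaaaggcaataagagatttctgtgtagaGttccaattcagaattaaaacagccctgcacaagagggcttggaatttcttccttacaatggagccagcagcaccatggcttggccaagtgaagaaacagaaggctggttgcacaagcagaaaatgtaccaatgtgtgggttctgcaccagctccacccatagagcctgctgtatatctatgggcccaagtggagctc
The windows align over 248 columns, of which 246 are identical, 2 are substituted and 0 are gapped (99.2% identity). Ear6 is more distant, at 85.4% identity to Ear2 and 85.1% to Ear1 in the 250 bases before its RefSeq start. In each of these alignments 20 gapped columns were counted as differences. The Ear6 window, chr14:51853518-51853767, also reaches past the GENCODE start of Ear6 at 51853699. The transcripts of Ear1 and Ear2 are 96.353% identical over 713 bases, and those of Ear6 are 88.64% and 88.655% identical to Ear1 and Ear2. The handling of reads that match several places is not given in the sources used here, so the split of reads between Ear1 and Ear2 is uncertain. Ear1 also overlaps the exons of the pseudogene Ear-ps9 on the same strand, which had 0 counts in the 12 libraries.

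Upstream windows were available for 7 of the 10 genes. Ccl11, Ccl24 and Prg2 had none, so neither eotaxin was searched. GATA factors bind a core of GATAA and are needed for the eosinophil lineage, and this core was searched on both strands. It was present in 2 of the 7 windows, those of the receptor genes, against 22.5% of all 32536 windows of that length. With so few windows, that count does not set the receptor genes apart. The receptor windows are chr9:124021721-124021970 on the plus strand for Ccr3 and chr6:106749038-106749287 on the minus strand for Il5ra (RefSeq, GRCm38.p6), with the GATAA match in capitals, 29 bases before the start of Ccr3 and 73 before that of Il5ra.
Ccr3: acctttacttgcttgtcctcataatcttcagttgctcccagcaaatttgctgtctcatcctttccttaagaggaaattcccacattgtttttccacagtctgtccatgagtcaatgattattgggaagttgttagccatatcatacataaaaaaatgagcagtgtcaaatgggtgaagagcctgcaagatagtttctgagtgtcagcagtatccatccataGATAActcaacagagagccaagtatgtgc
Il5ra: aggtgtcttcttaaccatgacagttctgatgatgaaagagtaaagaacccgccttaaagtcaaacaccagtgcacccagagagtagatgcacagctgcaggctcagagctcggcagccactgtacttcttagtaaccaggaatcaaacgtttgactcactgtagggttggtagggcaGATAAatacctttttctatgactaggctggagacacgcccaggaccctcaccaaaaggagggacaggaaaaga
The spaced palindrome bound by STAT factors, TTCNNNGAA, and its form with 1 more base between the arms were each in 0 of the 7 windows, against 7.0% and 5.9% of all windows. With so few windows, the related Ear genes among them, a count of 0 at such shares is not informative. These matches describe the letters of the windows and nothing of what binds there.

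CRE raised most of the 10 genes. In WT mice 7 of the 9 tested genes rose and Ear1 fell, and in CKO mice 5 rose and Ear1 fell (edgeR quasi-likelihood test, adjusted p below 0.05). The background of these calls was high: 28.6% of the 17473 tested genes were called higher and 28.4% lower in WT, and 20.6% higher and 18.5% lower in CKO. The median log2 fold change of the 9 genes was 4.48 in WT and 1.80 in CKO, beside 0.01 and 0.004 over all tested genes. Ccl24 rose most, Siglecf did not pass the test in either genotype, and the ribonuclease genes went in both directions. Siglecf, Ear1 and Ear2 went against the label of eosinophil genes: under PBS their means were 17.2 to 74.7 CPM in both genotypes, where Epx had 0 to 2 counts a library and Prg2 at most 0.508 CPM. Whole lung was measured, so a change in the number of cells of a type and a change in RNA per cell cannot be told apart.

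**Figure D1:**
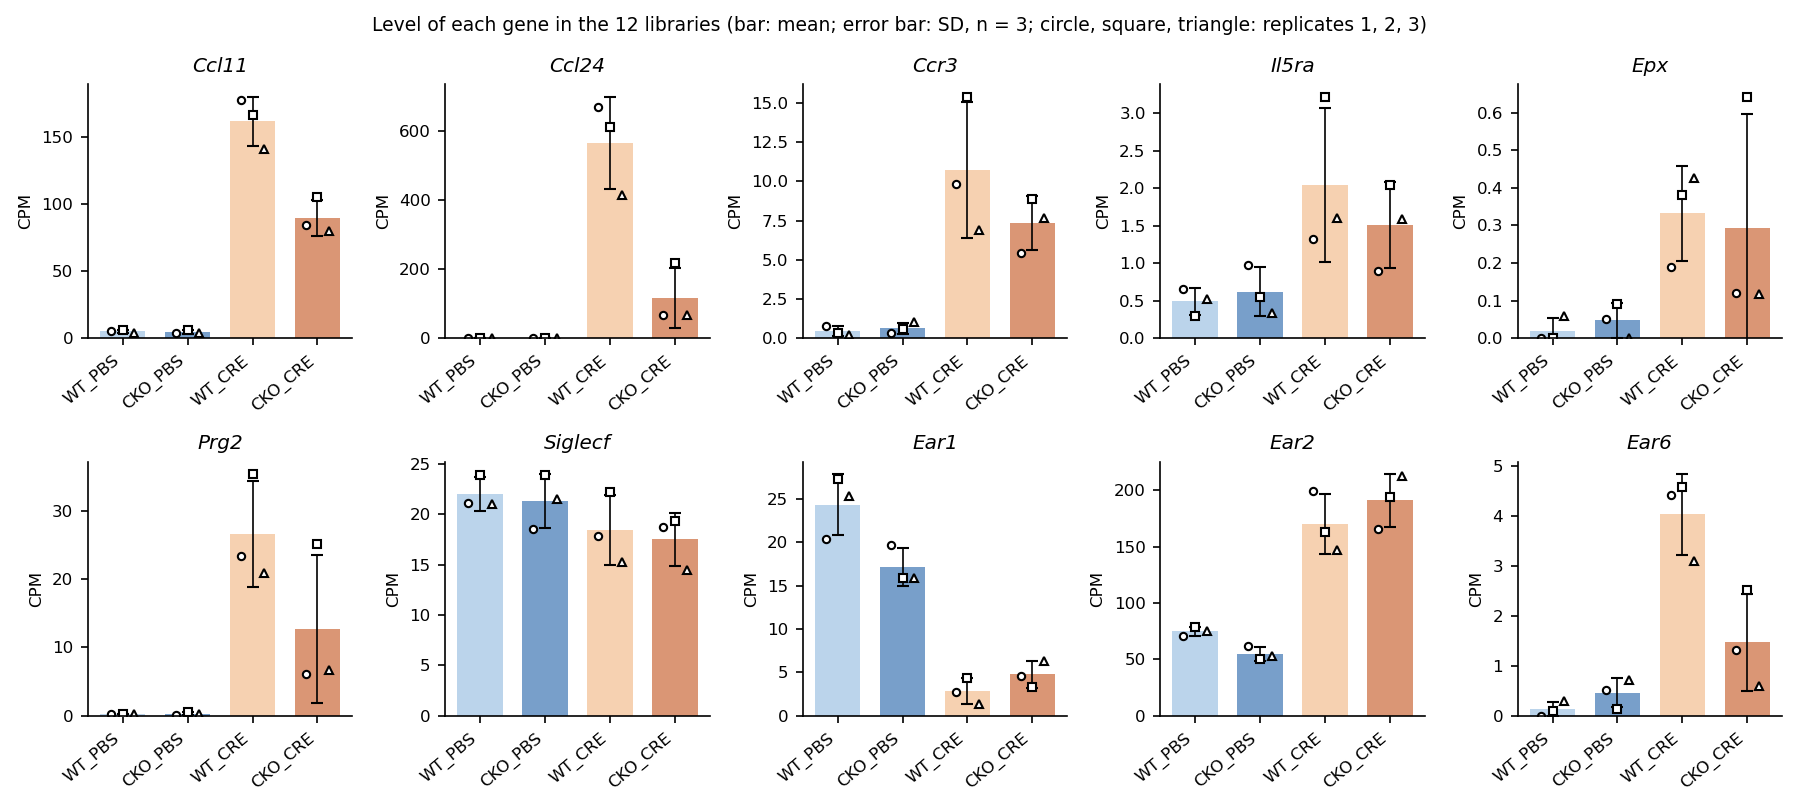
Level of each of the 10 genes in CPM (y axis, linear, own scale per gene) in the 4 groups; bars are means, error bars SD (n = 3), and circles, squares and triangles are replicates 1, 2 and 3. Ccl24, Ccl11, Prg2 and Ccr3 are near the axis under PBS and high under CRE, Siglecf is level, and Ear1 is high under PBS and low under CRE.

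Ccl11 (ENSMUSG00000020676, chr11:82057823-82062955, plus strand) encodes eotaxin-1. It was at 5.60, 6.19 and 3.65 CPM in the WT_PBS libraries, and at 3.72, 6.09 and 3.70 CPM in CKO_PBS. Under CRE it was at 177, 166 and 141 CPM in WT and at 84.1, 105 and 79.7 CPM in CKO. Every CRE library was above every PBS library, and every CKO_CRE library was below every WT_CRE library. The rise was 31.1-fold in WT (log2 4.96 ± 0.23 SE, adjusted p = 2.23e-07) and 19.8-fold in CKO (log2 4.31 ± 0.23, adjusted p = 8.17e-07).

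Ccl24 (ENSMUSG00000004814, chr5:135569937-135573049, minus strand) encodes eotaxin-2, in the mouse mainly a macrophage product. It was almost silent under PBS, with 6, 3 and 11 counts in WT_PBS (0.303, 0.151 and 0.648 CPM) and 4, 4 and 2 counts in CKO_PBS (0.206, 0.185 and 0.096 CPM). The WT_CRE libraries held 670, 611 and 415 CPM and the CKO_CRE libraries 67.7, 217 and 66.4 CPM. The groups did not overlap, and CKO_CRE replicate 2 was the highest CKO library. With so few counts under PBS the size of the rise is imprecise: log2 10.61 ± 0.66 in WT (adjusted p = 1.31e-06) and 9.44 ± 0.69 in CKO (adjusted p = 8.4e-06).

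The balance of the eotaxins turned over. Per kilobase of exon, the ratio of the Ccl24 level to the Ccl11 level was 0.0452, 0.0204 and 0.148 in WT_PBS and 0.0464, 0.0253 and 0.0217 in CKO_PBS. Ccl24 was thus the minor eotaxin transcript in all 6 PBS libraries. In WT_CRE the ratio was 3.16, 3.07 and 2.46, and in CKO_CRE it was 0.672, 1.72 and 0.696. Ccl24 exceeded Ccl11 in every WT_CRE library and in replicate 2 of CKO_CRE, and was below it in the other CKO_CRE libraries.

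**Figure D2:**
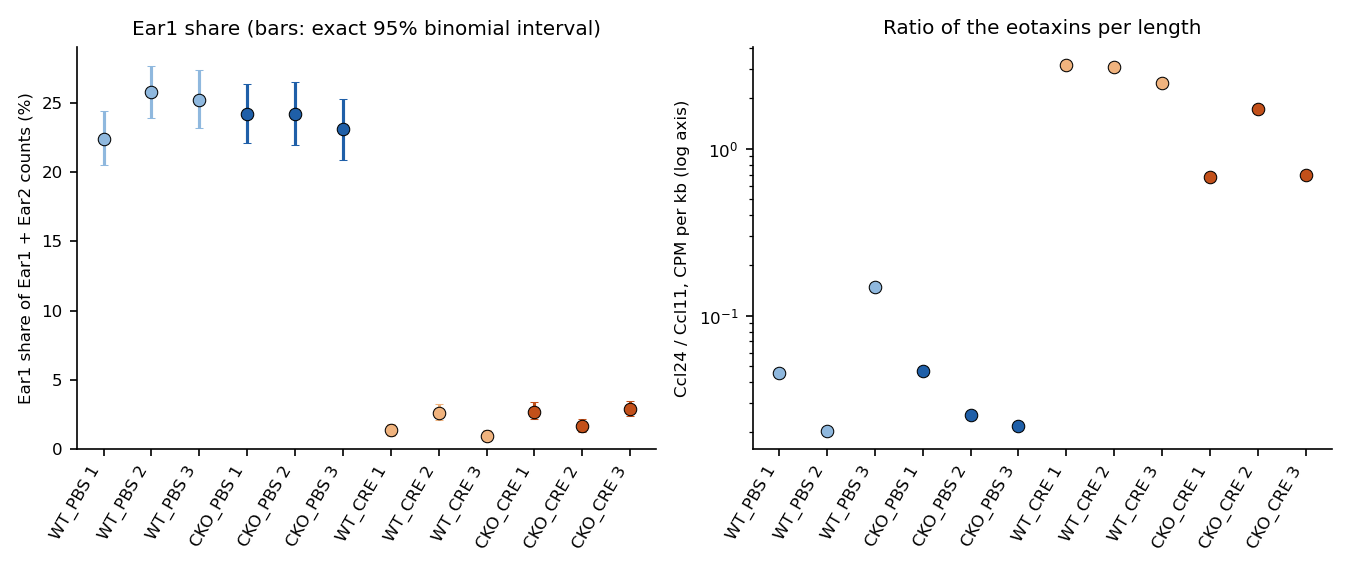
Left, the share of Ear1 among Ear1 and Ear2 counts in each library (percent; bars are exact 95% binomial intervals, counting error only); right, the ratio of Ccl24 to Ccl11 in CPM per kilobase (log axis). The Ear1 share is between 22.4% and 25.8% in PBS libraries and between 0.939% and 2.89% in CRE libraries, and the eotaxin ratio is above 2 only in WT_CRE.

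Under CRE the receptors were lower than the ligands per kilobase of exon. Ccr3 (ENSMUSG00000035448, chr9:124021972-124031689, plus strand), the receptor for both eotaxins, was at 0.808, 0.352 and 0.235 CPM in the WT mice given PBS, and the CKO_PBS libraries held 0.310, 0.600 and 1.01 CPM. Under CRE it reached 9.83, 15.4 and 6.89 CPM in WT, against 5.46, 8.87 and 7.64 CPM in CKO. PBS and CRE libraries did not overlap in either genotype, with rises of log2 4.48 ± 0.48 in WT (adjusted p = 3.08e-05) and 3.5 ± 0.46 in CKO (adjusted p = 0.00027).

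Il5ra (ENSMUSG00000005364, chr6:106710357-106749037, minus strand) encodes the interleukin-5 binding subunit and was scarce, with 6 to 59 counts a library. It was at 0.656, 0.302 and 0.530 CPM in WT_PBS and at 1.32, 3.22 and 1.60 CPM in WT_CRE, without overlap. The rise in WT was log2 2.04 ± 0.51 (adjusted p = 0.00472). The CKO_PBS libraries held 0.981, 0.554 and 0.336 CPM and the CKO_CRE libraries 0.900, 2.04 and 1.59 CPM. These overlapped, and the difference of log2 1.28 ± 0.50 missed the threshold (adjusted p = 0.0589). It passed when CKO_PBS replicate 1 (adjusted p = 0.036), WT_CRE replicate 2 (0.0476) or CKO_CRE replicate 1 (0.0302) was left out, and with DESeq2 (0.0428) or limma-voom (0.0257).

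The granule protein genes separated from each other by level. Prg2 (ENSMUSG00000027073, chr2:84980461-84983632, plus strand) was at 0.252, 0.302 and 0.177 CPM in WT mice under PBS, and at 0.103, 0.508 and 0.192 CPM in CKO mice. In WT_CRE it rose to 23.5, 35.5 and 21 CPM, a change of log2 6.72 ± 0.69 (adjusted p = 2.51e-05). The CKO_CRE libraries were uneven, at 6.18, 25.2 and 6.70 CPM, with replicate 2 inside the WT_CRE range. The change in CKO was log2 5.50 ± 0.68 (adjusted p = 0.000215).

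Epx (ENSMUSG00000052234, chr11:87864000-87875536, minus strand), the most specific eosinophil granule gene of the set, stayed at the edge of detection. The WT_PBS libraries held 0, 0 and 1 count and the CKO_PBS libraries 1, 2 and 0. WT_CRE held 3, 7 and 8 counts, and CKO_CRE held 2, 11 and 2. Scaled by library size, the summed counts of WT_CRE were 18.8 times those of WT_PBS (exact 95% interval 2.97 to 783), and those of CKO_CRE were 6.05 times those of CKO_PBS (1.71 to 32.6). These intervals cover counting error only. When no filter on low counts was used, edgeR gave Epx a rise of log2 3.8 ± 1.26 in WT (adjusted p = 0.0228) and a difference of 2.46 ± 1.10 in CKO that did not pass (adjusted p = 0.136). The related granule gene Prg3, which is not one of the 10, had 0, 0 and 0 counts in WT_PBS and 2, 9 and 5 in WT_CRE. Its counts were 2, 0 and 0 in CKO_PBS and 0, 2 and 1 in CKO_CRE.

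Siglecf (ENSMUSG00000039013, chr7:43351341-43359531, plus strand), used to gate lung eosinophils and alveolar macrophages, did not follow the other genes. Under PBS the WT libraries held 21.1, 23.9 and 21 CPM and the CKO libraries 18.5, 23.9 and 21.5 CPM. Under CRE the WT libraries held 17.8, 22.2 and 15.3 CPM and the CKO libraries 18.7, 19.3 and 14.5 CPM. All groups overlapped. The CRE difference was log2 -0.25 ± 0.16 in WT (adjusted p = 0.186) and -0.28 ± 0.16 in CKO (adjusted p = 0.171). With limma-voom and library quality weights the same differences passed, at -0.27 (adjusted p = 0.048) and -0.47 (adjusted p = 0.00974), where 69.1% and 45.9% of all genes were called.

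The ribonuclease genes encode small secreted RNases of eosinophil granules and of macrophages. Under PBS Ear1 was at 20.4, 27.3 and 25.3 CPM in the WT libraries, against 19.7, 15.9 and 15.9 CPM in the CKO libraries. Under CRE the WT libraries held only 2.71, 4.37 and 1.39 CPM and the CKO libraries 4.62, 3.27 and 6.34 CPM. It was the only one of the 10 whose CRE libraries were all below its PBS libraries. It fell 8.60-fold in WT (log2 -3.10 ± 0.33, adjusted p = 3.07e-05) and 3.62-fold in CKO (log2 -1.85 ± 0.31, adjusted p = 0.00118).

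For Ear2 the PBS libraries held 70.7, 78.5 and 74.9 CPM in WT mice, against 61.8, 49.9 and 53.0 CPM in CKO mice. The CRE libraries held 199, 163 and 147 CPM in WT mice, against 166, 194 and 213 CPM in CKO mice. CRE and PBS libraries did not overlap, with rises of 2.27-fold in WT (log2 1.18 ± 0.13, adjusted p = 3.65e-05) and 3.48-fold in CKO (log2 1.80 ± 0.13, adjusted p = 8.6e-06). Among the reads given to Ear1 or Ear2, the Ear1 share went from 22.4%, 25.8% and 25.2% in WT_PBS to 1.34%, 2.61% and 0.939% in WT_CRE. In CKO it went from 24.2%, 24.2% and 23.1% to 2.71%, 1.66% and 2.89%. The exact 95% interval of the highest CRE share, in CKO_CRE replicate 3, ran from 2.38% to 3.48%, and that of the lowest PBS share, in WT_PBS replicate 1, from 20.5% to 24.4%.

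Because reads could be split between these near copies, Ear1, Ear2 and their copies were also summed and tested as 1 gene, a choice made after the data were seen. The sum rose by log2 0.80 ± 0.13 in WT (adjusted p = 0.000415) and by 1.44 ± 0.13 in CKO (adjusted p = 4.82e-05). The direction of the sum is that of Ear2, which held most of the reads in every library.

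Ear6 (ENSMUSG00000062148, chr14:51853699-51854643, plus strand) had 0, 2 and 5 counts in WT_PBS (0, 0.101 and 0.294 CPM) and 70, 84 and 58 counts in WT_CRE (4.41, 4.58 and 3.10 CPM). That rise was log2 4.94 ± 0.77 (adjusted p = 0.000283). The CKO_PBS libraries held 10, 3 and 15 counts (0.516, 0.138 and 0.720 CPM) and the CKO_CRE libraries 22, 43 and 10 counts (1.32, 2.51 and 0.587 CPM). The CKO groups overlapped, and the difference of log2 1.68 ± 0.66 did not pass (adjusted p = 0.0606). It passed without CKO_CRE replicate 3 (log2 2.06, adjusted p = 0.0281), with DESeq2 (adjusted p = 0.0251) and with no filter on low counts (adjusted p = 0.0288).

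**Figure D3:**
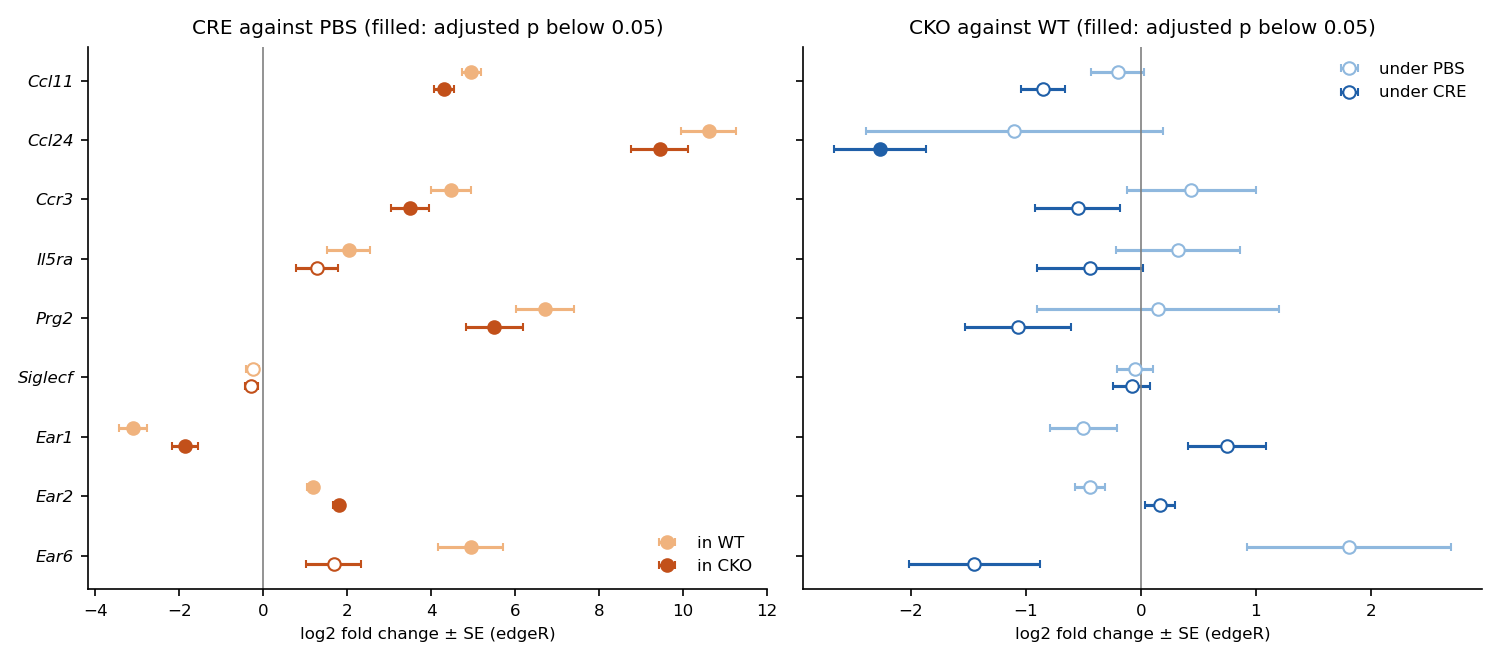
Log2 fold changes of the 9 tested genes with SE (edgeR; filled points have an adjusted p below 0.05). Left, CRE against PBS in WT and CKO; right, CKO against WT under PBS and under CRE, where Ccl24 under CRE, at -2.27, is the one filled point.

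Compared per kilobase of exon, the order of the levels differed between treatments. In WT_PBS Ear2 led with a mean of 104 CPM per kb, followed by Ear1 at 33.3, Siglecf at 7.87 and Ccl11 at 4.76, and no neighbours among these 4 overlapped. Prg2 (0.291), Ccl24 (0.284), Ccr3 (0.142), Il5ra (0.139) and Ear6 (0.139) followed, with each overlapping the next. In WT_CRE the order was Ccl24 at 437 CPM per kb, Ear2 at 236, Ccl11 at 149, Prg2 at 31.8 and Siglecf at 6.61, without overlap between neighbours. Ear6 (4.27), Ear1 (3.86) and Ccr3 (3.28) overlapped in turn and stood above Il5ra (0.573) and Epx (0.122). In CKO_CRE Ear2 led at 265 CPM per kb, and Ccl24 (90.3) and Ccl11 (82.8) overlapped.

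The genotypes were compared under each treatment to see what floxed Rhoa changed. Under PBS none of the 9 tested genes passed the edgeR test, 1 had an unadjusted p under 0.05, as did 5.32% of all tested genes, and DESeq2 also called 0. In this comparison 0.0401% of all genes were called higher in CKO and 0.0687% lower. The unadjusted call was Ear2, whose CKO_PBS libraries (49.9 to 61.8 CPM) were all below the WT_PBS libraries (70.7 to 78.5 CPM), a difference of log2 -0.44 ± 0.13 (adjusted p = 0.455). Ear1 had the same separation, at 15.9 to 19.7 against 20.4 to 27.3 CPM (log2 -0.50 ± 0.29, adjusted p = 1). As near copies with an uncertain split of reads, Ear1 and Ear2 are not independent observations. The eotaxins differed by log2 -0.20 ± 0.23 for Ccl11 and -1.10 ± 1.29 for Ccl24 (adjusted p = 1 for each), the latter on 2 to 11 counts a library. The other estimates were 0.44 ± 0.56 for Ccr3, 0.32 ± 0.54 for Il5ra, 0.15 ± 1.05 for Prg2, -0.05 ± 0.16 for Siglecf and 1.81 ± 0.89 for Ear6, and the median of the 9 was -0.05, beside 0.002 over all tested genes.

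Under CRE the Ccl24 level was 4.84-fold lower in CKO than in WT (565 ± 134 against 117 ± 86.4 CPM, mean ± SD, n = 3). It was the one member called, at log2 -2.27 ± 0.40 (edgeR, adjusted p = 0.0234), where 0.366% of all genes were called lower and 0.549% higher. The call depended on single libraries, while the estimate stayed below 0 in every fit. It was lost without WT_CRE replicate 1 (log2 -2.13, adjusted p = 0.103), WT_CRE replicate 2 (-2.21, 0.0626) or CKO_CRE replicate 3 (-1.99, 0.0849). It was also lost when only the CRE libraries were fitted (log2 -2.27, adjusted p = 0.222) and against a 2-fold threshold (adjusted p = 0.368). Without CKO_CRE replicate 2 it was log2 -3.07 (adjusted p = 9.5e-06).

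Ccl11 was at 161 ± 18.6 CPM in WT_CRE and 89.6 ± 13.5 CPM in CKO_CRE. That difference of log2 -0.85 ± 0.19 missed the threshold in edgeR (adjusted p = 0.0603) and passed in DESeq2 (adjusted p = 0.00215), which called 4.8% of all genes. It also passed without CKO_PBS replicate 2 (adjusted p = 0.039) or CKO_CRE replicate 2 (adjusted p = 0.00242). Among the 9 tested genes, 5 had an unadjusted p under 0.05, as did 18.5% of all tested genes; 7 estimates were below 0, and their median was log2 -0.55 beside 0.01 over all tested genes. Prg2 differed by log2 -1.07 ± 0.46 (adjusted p = 0.244), Ear6 by -1.45 ± 0.57 (0.215), Ccr3 by -0.55 ± 0.37 (0.432) and Il5ra by -0.44 ± 0.46 (0.607). For Epx the summed CKO_CRE counts were 0.885 times those of WT_CRE (exact 95% interval 0.415 to 1.86). The positive estimates were Ear1 at 0.75 ± 0.34 (adjusted p = 0.266) and Ear2 at 0.17 ± 0.13 (0.479), and Siglecf was at -0.08 ± 0.16 (0.814).

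CKO_CRE replicate 2 was nearest to WT_CRE for most of these genes. Set against the WT_CRE mean, Ccl24 was at 12%, 38.3% and 11.7% in CKO_CRE replicates 1, 2 and 3. Prg2 was at 23.2%, 94.5% and 25.1%, Ear6 at 32.8%, 62.3% and 14.6%, and Epx at 36.1%, 193% and 35.3%. Ccl11 was more even, at 52.2%, 65.1% and 49.4%. Without replicate 2, edgeR called 5 members: Ccl11 (log2 -0.97), Ccl24 (-3.07), Prg2 (-2.05, adjusted p = 0.000536), Ear6 (-2.07, adjusted p = 0.025) and, upward, Ear1 (0.96, adjusted p = 0.0493). In that fit 28.5% of all genes were called. The same 5 members passed with limma-voom, which called 43.8% of all genes.

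**Figure D4:**
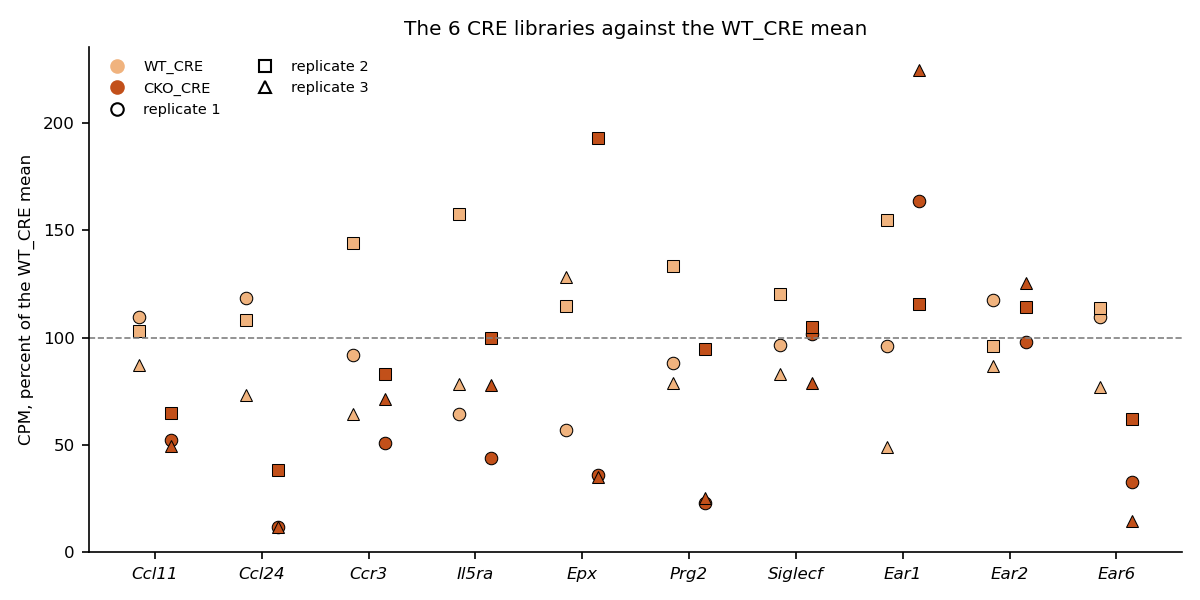
CPM of the 10 genes in the 6 CRE libraries as a percentage of the WT_CRE mean (dashed line at 100%; color gives the genotype and marker shape the replicate). CKO_CRE replicate 2 (squares) is the highest CKO_CRE library for 8 genes, among them Ccl24 at 38.3% and Prg2 at 94.5%, while Ear1 and Ear2 are highest in replicate 3.

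The CRE responses of the genotypes were then compared directly through the interaction. No member was called by edgeR, and 3 had an unadjusted p under 0.05, as did 10.3% of all tested genes; DESeq2 also called 0. Over all genes 0.0343% were called higher and 0.0114% lower. The estimates, as the CKO response minus the WT response, were log2 -0.65 ± 0.30 for Ccl11 (adjusted p = 0.483), -1.17 ± 1.51 for Ccl24 (0.772), -3.26 ± 1.06 for Ear6 (0.399), 1.25 ± 0.45 for Ear1 (0.412) and 0.61 ± 0.18 for Ear2 (0.365). Those of Ccr3 (-0.99 ± 0.67), Il5ra (-0.76 ± 0.71), Prg2 (-1.22 ± 1.17) and Siglecf (-0.03 ± 0.22) had adjusted p-values of 0.598, 0.689, 0.699 and 0.965. The calls of Il5ra and Ear6 in WT alone are therefore not shown to differ between genotypes. Without CKO_CRE replicate 2 the interaction passed for Ear1 (1.46, adjusted p = 0.0362), Ear2 (0.61, 0.0477), Ear6 (-3.88, 0.0254) and Prg2 (-2.19, 0.0465), with 14.8% of all genes called.

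Other chemokine genes listed as ligands of CCR3, a role not established for mouse Ccl8, responded unevenly. For this list and those below, 28.6% of all tested genes were called higher and 28.4% lower under CRE in WT. In CKO these shares were 20.6% and 18.5%. Between genotypes under CRE, 0.549% of all tested genes were called higher in CKO and 0.366% lower. Of 4 tested, Ccl8 and Ccl7, monocyte chemoattractants, rose in both genotypes, while Ccl5 and Ccl28 did not pass. Ccl8 went from 7.09 ± 2 to 880 ± 96.5 CPM in WT (log2 6.95 ± 0.57, adjusted p = 8.23e-06), and Ccl7 from 1.09 ± 0.432 to 65.9 ± 16.3 CPM (log2 5.89 ± 0.51, adjusted p = 1.08e-05). In CKO_CRE they were at 415 ± 206 and 29.7 ± 19.8 CPM, and neither passed against WT_CRE (adjusted p = 0.218 and 0.159); without CKO_CRE replicate 2 both did (0.0133 and 0.000539). Ccl26, eotaxin-3 in humans, had 0 counts in 10 of 12 libraries and 2 counts in each of the others.

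On the interleukin-5 side, 5 of 6 tested genes of the cytokine and receptor family rose under CRE in each genotype and none differed between genotypes under CRE. Il5 itself was rare, with 1, 2 and 1 counts in WT_PBS, 28, 12 and 20 in WT_CRE and 15, 9 and 3 in CKO_CRE. Its rise was log2 3.91 ± 0.68 in WT (adjusted p = 0.000535) and 3.29 ± 0.76 in CKO (adjusted p = 0.00598). The CKO call was lost with limma-voom (log2 1.81, adjusted p = 0.0964) and against a 2-fold threshold (adjusted p = 0.0792). The shared beta chain gene Csf2rb rose as well, by log2 1.06 ± 0.14 in WT and 1.12 ± 0.14 in CKO. Csf2rb2, a related beta chain gene, rose by log2 1.84 ± 0.18 in WT. Il3 had 0 counts in every library.

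Of 10 further eosinophil genes 6 were tested. In WT 5 rose under CRE and Ptgdr2, a prostaglandin D2 receptor gene, fell (log2 -1.67 ± 0.44, adjusted p = 0.00698), a call lost with sex in the fit (log2 -1.29, adjusted p = 0.0566) and against a 2-fold threshold (adjusted p = 0.181). In CKO 5 rose and none fell. Cebpe, a transcription factor gene of granulocyte maturation, rose by log2 7.09 ± 0.64 in WT and Alox15, a lipoxygenase gene of eosinophils and macrophages, by 5.74 ± 0.27. Rnase2a, a ribonuclease gene of the Ear family, was at 6, 5 and 0 counts in WT_PBS and at 301, 195 and 235 CPM in WT_CRE. It was at 90.6, 114 and 79.2 CPM in CKO_CRE, below every WT_CRE library, and was called lower (log2 -1.36 ± 0.21, adjusted p = 0.0115), a call lost without WT_CRE replicate 1 (0.0598) or CKO_CRE replicate 3 (0.0557). Prg3, Ear10, Ear14 and Hrh4 did not pass the filter.

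The cytokines that induce eotaxins, and their receptors, formed another list. Of 9 tested genes, 6 rose and 1 fell in WT under CRE, and 5 rose in CKO. Between genotypes under CRE, 2 were called, both lower in CKO. Il13, a main inducer of both eotaxins, was at 12.3, 16.3 and 10.1 CPM in WT mice given CRE, and the CKO_CRE libraries held 2.76, 4.26 and 2.17 CPM (log2 -2.07 ± 0.38, adjusted p = 0.028). Il1rl1, the interleukin-33 receptor gene, was at 38.2 ± 6.10 and 15.4 ± 3.40 CPM (log2 -1.31 ± 0.25, adjusted p = 0.0322). The values of the genotypes did not overlap for Il13 or Il1rl1. Both calls were thin: each passed in 4 of 12 fits with 1 library left out (any CKO_PBS library or CKO_CRE replicate 2), with the adjusted p up to 0.11 for Il13 and 0.138 for Il1rl1, both without WT_CRE replicate 1.

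Markers of cells that share these transcripts were summed beside them. The 12 alveolar macrophage markers, which bear on Siglecf, Ear1 and Ear2, summed to 567 to 623 CPM in WT_PBS, 560 to 665 in CKO_PBS, 836 to 870 in WT_CRE and 870 to 1070 in CKO_CRE, with none at 0. Itgax alone had a mean of 363 CPM in WT_CRE, against 81.5 CPM in WT_PBS. Within that list 3 rose and 7 fell in WT under CRE, and 4 rose and 2 fell in CKO. Fabp1, a lipid carrier gene, fell with Ear1 (6.26 ± 0.598 to 0.0934 ± 0.0611 CPM in WT, log2 -5.95 ± 0.57, adjusted p = 1.69e-05). Between genotypes under CRE, 4 alveolar macrophage markers were higher in CKO and none lower, among them Krt79 (log2 3.29 ± 0.46, adjusted p = 0.0077; 0.0589 without WT_CRE replicate 1). Their part in the Ear1 and Ear2 values was not tested.

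The 12 markers of alternatively activated and interstitial macrophages, which bear on Ccl24, all rose under CRE in both genotypes, with none at 0 in any group. Their sum was 1330 to 1700 CPM in WT_PBS, 1520 to 2130 in CKO_PBS, 21400 to 25900 in WT_CRE and 15300 to 20200 in CKO_CRE. Retnla and Chil3 gave most of that sum in WT_CRE, at 9480 ± 1660 and 9460 ± 890 CPM. Between genotypes under CRE, Cd163, a scavenger receptor gene of tissue macrophages, was the one called, at 147 ± 6 and 59.1 ± 3.72 CPM (log2 -1.31 ± 0.14, adjusted p = 0.000693). The 9 fibroblast markers, which bear on Ccl11, summed to 3680 to 3920 CPM in WT_PBS, 3800 to 4590 in CKO_PBS, 8950 to 9770 in WT_CRE and 6500 to 7270 in CKO_CRE, and none was at 0. Col1a1, Col1a2 and Col3a1 gave most of that sum, with means of 1920, 2110 and 4740 CPM in WT_CRE. Of these 9, 4 rose and 3 fell in WT under CRE, 4 rose and 4 fell in CKO, and 2 collagen genes, Col1a1 and Col1a2, were lower in CKO_CRE than in WT_CRE. The part of these cells in the eotaxin levels was not tested.

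For Ccr3, Prg2 and Il5ra, 3 other cell types were looked at. Mast cell and basophil markers summed to 285 to 303 CPM in WT_PBS, 264 to 285 in CKO_PBS, 312 to 385 in WT_CRE and 310 to 335 in CKO_CRE, with Mcpt1 at 0 in WT_PBS and Mcpt2 at 0 in CKO_PBS. Kit (229 ± 3.38 CPM) and Hdc (54.1 ± 6.5 CPM) gave most of that sum in WT_PBS. B and plasma cell markers summed to 387 to 420, 407 to 448, 899 to 1020 and 481 to 1040 CPM in the same order of groups, with none at 0. Sdc1 gave most of that sum in WT_PBS, at 271 ± 5.68 CPM. Neutrophil markers summed to 99.8 to 126, 127 to 454, 372 to 616 and 221 to 561 CPM, with none at 0. Of the tested genes in these lists, 4 of 10, 7 of 10 and 8 of 10 rose in WT under CRE and 5, 4 and 2 rose in CKO, while 2 mast cell and basophil genes fell in WT. Over all tested genes 28.6% were called higher in WT and 20.6% in CKO. The mast cell and basophil count in WT and the neutrophil count in CKO were not far from these shares. The part of these cell types in the receptor and granule gene values was not tested. The 7 lung identity genes summed to 17900 to 27000 CPM over all libraries, of which the surfactant gene Sftpc gave 9490 ± 981 CPM in WT_CRE. Under CRE 6 fell and 1 rose in WT, and 5 fell and 1 rose in CKO. Scgb1a1, the Cc10 gene, was at 35.5 ± 3.57 CPM in WT_PBS and 8.29 ± 1.63 CPM in WT_CRE (log2 -2.10 ± 0.36, adjusted p = 0.000532), and its change in CKO was log2 -1.56 ± 0.35 (adjusted p = 0.00533).

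Genes whose pattern over the 12 libraries was nearest to that of a member were found by the root mean square difference of centered log2 CPM. For Ccl11 these were Tnfrsf9 (0.32), Retnla (0.33) and Alox15 (0.38), and for Ccl24 they were Arg1 (0.90), Rnase2a (0.93) and Chil4 (1.01). Retnla, Arg1 and Chil4 are known products of alternatively activated mouse macrophages, though not of these cells alone, and their source was not measured here. For Prg2 the nearest were Tarm1 (0.38), Ccl7 (0.44) and Fxyd4 (0.51), for Ear1 they were Slc6a15 (0.31), Wnt10b (0.35) and Cadm2 (0.39), and for Ear2 they were Casp4 (0.19), Tonsl (0.22) and Stil (0.23).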

How the data were processed

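The deposited values were read counts per gene in 1 table of 12 libraries. Per the submitters' processing notes, the authors used fastp, STAR and the mouse build mm10; how reads were counted, with which strand setting and annotation, is not given in the sources used here. Symbols and positions came from GENCODE M21 (GRCm38), which matched 54495 of 54532 identifiers; the other 37 held at most 0.0064% of a library's counts and were kept.

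The quasi-likelihood F test of edgeR 4.0.16 (under R 4.3.3) was run on the counts of all 12 libraries. The fit had 1 mean for each group, TMM scaling and filterByExpr. The test was first tested on simulated data, in which no library was made to deviate as CKO_CRE replicate 2 did. The 17473 genes that passed the filter were adjusted together (Benjamini-Hochberg); calls needed an adjusted p below 0.05. The coefficient of biological variation was 17.4%. Levels are CPM of TMM-scaled totals, divided by exon length where genes are compared. Log2 fold changes are ± SE.

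The members and gene lists were chosen with earlier results of these data known. All 10 members are named. Also named are up to 3 called genes of largest change per list and contrast, and the 3 nearest genes for 5 members. List genes set beside a member, or giving much of a list's sum, are named too. Alternatives were DESeq2 1.42.0 (Wald test, or its size factors), limma-voom (limma 3.58.1) with quality weights, fits without the low-count filter, with a block for the replicate number, on only the compared groups, against a 2-fold threshold or with sex as a covariate, raw totals for levels, and each library left out. Transcripts were aligned with blastn 2.17.0; copies had at least 90% identity over 200 bases. Upstream sequences are RefSeq's.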

Additional observations from a re-analysis of the deposited data

Results flagged for a closer look

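For Ear1 and Ear6, every CKO library lay on one side of the WT mean under PBS and on the other side under CRE. The share of all genes with this pattern was not computed, so the pattern is not shown to set Ear1 and Ear6 apart. Ear1 differed between CKO and WT by log2 -0.50 under PBS and 0.75 under CRE. Ear6 differed by log2 1.81 under PBS and -1.45 under CRE. The difference between the treatments was tested as the interaction in edgeR and did not pass for Ear1 (adjusted p = 0.412) or Ear6 (adjusted p = 0.399). The Ear6 values under PBS rest on 0 to 15 counts a library, and the Ear1 libraries of the genotypes overlapped under CRE.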

How the results depend on the processing

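Of 893 member values recomputed under alternatives, over 45 results, 839 kept their direction and their side of the threshold, 30 newly passed it, 8 no longer passed it and 16 changed sign. The count of member genes called between genotypes under CRE, 1 as reported, was 2 with DESeq2 and with no low-count filter, 5 with limma-voom, 0 with only the groups compared and 0 against a 2-fold threshold, and 0 to 5 with 1 library left out. For the interaction, 0 as reported, it was 3 with limma-voom and 0 to 4 with 1 library left out. Over all genes the genotype calls under CRE, 160 as reported, ranged from 13 (2-fold threshold) to 7645 (limma-voom), and were 5112 without CKO_CRE replicate 2; the interaction, with 8 calls, ranged from 0 to 4371. The cause was not tested. The CRE calls were steadier: 8 members in WT in all 12 leave-outs, and 6 to 7 in CKO. Of all genes, 47.7% to 60.6% were called in WT in these fits, and 26.5% to 43.3% in CKO. Leaving out a library of the other genotype removed none of the libraries compared. Against a 2-fold threshold Il5ra (adjusted p = 0.0853) and Ear2 (0.201) in WT and Ear1 (0.0641) in CKO no longer passed.

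The 16 changes of sign were in values far from the threshold. Between genotypes under PBS, with 1 library left out, Ccr3 ranged from -0.04 to 1.10, Il5ra from -0.15 to 0.62, Prg2 from -0.70 to 0.50 and Siglecf from -0.14 to 0.04, and Prg2 was -0.26 with limma-voom and -0.23 with the sex covariate. Under CRE, Il5ra ranged from -0.72 to 0.05 and Siglecf from -0.19 to 0.08, and the Siglecf interaction from -0.14 to 0.13. Epx was tested only with no low-count filter. Raw totals moved 0 of 40 levels by more than 1 SD. Depth limited Epx (0 to 11 counts a library) and, under PBS, Ccl24 (2 to 11), Prg2 (2 to 11), Ear6 (0 to 15) and Il5ra (6 to 19).

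With the replicate number as a replicate block, 3 members were called between genotypes under CRE: Ccl11 (log2 -0.86, adjusted p = 0.0157), Ccl24 and Prg2 (-1.32, 0.0439); this fit called 0.864% of all genes. The block changed no other call of a member. The deviations of same-numbered libraries correlated at -0.023 to 0.176, and the labels name no shared litter or day, so the libraries share only a number.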
